A study of Homo sapiens with 2 samples.

Results

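Receptors, a signal transducer and secreted antagonists of the TGF-beta and BMP pathways are described here in 2 human ovarian cancer lines, 1 without and 1 with functional BRCA1. The 5 genes are TGFBR3, BMPR1B, SMAD3, FSTL3 and SMOC1, taken by name from the authors' list of 1806 genes with an adjusted p under 0.05 between the lines. They were chosen because they were on that list, so their values below are a description and carry no test. The first group is the line UWB1.289, an established serous ovarian carcinoma line whose genotype is labelled BRCA1 Knockout. The second sample is titled UWBBRCA, with its cell line labelled UWABRCA1 and its genotype WT, known as the same line with BRCA1 supplied, and the labels name neither a vector nor a clone. Both were untreated and grown in the same mixed medium, and the labels give 1 sample for each. Total RNA was sequenced after depletion of ribosomal RNA.

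TGF-beta, activins and BMPs are secreted dimers that bring together type I and type II receptor kinases on the cell surface. The type I receptor then phosphorylates a receptor-activated SMAD, SMAD2 or SMAD3 for TGF-beta and activin, and SMAD1, SMAD5 or SMAD9 for BMPs, which enters the nucleus with SMAD4. Co-receptors help or hinder ligand binding, and many secreted antagonists, though not all, trap ligands outside the cell. In ovarian carcinoma the pathway is known both for restraining growth and for promoting invasion.

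The values are FPKM, fragments normalised to the length of the transcript and to sequencing depth, so levels can be compared roughly between genes. FPKM are not corrected for GC content, which moved with direction, as given below. The authors gave 1 mean per line. All 3612 FPKM values were whole to 6 decimals after multiplication by 3 (tolerance 0.02 of the last decimal), so each was read as a mean of 3 values, which the labels do not describe. The single values were not used here, so there is no spread or n for any FPKM, and read totals were not used, so the depth is unknown. BRCA1 had a mean of 5.63 FPKM in the line labelled as its knockout and 22.0 in the other. Of the 12 ovarian carcinoma markers looked up, 3 had a row (MUC16, FOLR1 and WT1). The list holds only genes called different between the lines, so a marker without a row may still be expressed in both. The labelled cell type could therefore be checked only in part, on the levels of these 3. MUC16 had 6.21 against 1.40 FPKM, FOLR1 2.80 against 6.56, and WT1 was under 1 FPKM in both lines. In bulk RNA, fewer cells with a transcript and less of it per cell cannot be told apart.

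The sequences before the starts of 3 members are shown. Of the 5, FSTL3 had the largest positive difference on the scale of FPKM + 1, and SMOC1 and BMPR1B had the largest FPKM ratios upward and downward. On the scale of FPKM + 1 the most negative difference was that of TGFBR3 (-1.50), and that of BMPR1B was the smallest in size (-0.48). Each run is the 250 bases upstream of a start annotated by RefSeq on GRCh38.p14, read 5′ to 3′ on the strand of the gene. Capitals mark GGCGC or its reverse complement GCGCC, a GC-rich sequence that SMAD proteins are known to bind.
FSTL3, chr19:676142-676391, plus strand: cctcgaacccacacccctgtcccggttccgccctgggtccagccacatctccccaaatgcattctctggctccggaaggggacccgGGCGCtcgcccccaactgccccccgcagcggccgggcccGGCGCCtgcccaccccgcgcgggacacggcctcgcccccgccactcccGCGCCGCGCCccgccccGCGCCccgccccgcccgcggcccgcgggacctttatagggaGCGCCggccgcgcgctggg
SMOC1, chr14:69879166-69879415, plus strand: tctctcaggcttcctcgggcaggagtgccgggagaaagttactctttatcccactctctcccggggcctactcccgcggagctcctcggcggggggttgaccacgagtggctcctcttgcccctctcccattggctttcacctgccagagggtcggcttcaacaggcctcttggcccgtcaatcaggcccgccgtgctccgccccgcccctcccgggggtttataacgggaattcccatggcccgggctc
BMPR1B, chr4:94757705-94757954, plus strand: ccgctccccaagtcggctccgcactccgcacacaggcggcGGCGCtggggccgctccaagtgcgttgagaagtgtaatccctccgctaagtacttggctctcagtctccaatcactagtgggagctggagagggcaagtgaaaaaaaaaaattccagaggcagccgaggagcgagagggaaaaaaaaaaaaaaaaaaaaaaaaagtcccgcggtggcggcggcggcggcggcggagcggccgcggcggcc

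The windows differed in composition. GGCGC, counted on both strands with overlapping matches counted separately, had 7 copies before FSTL3, 7 before SMAD3, 2 before TGFBR3, 1 before BMPR1B and 0 before SMOC1. Of 35114 RefSeq windows of the same length, 44.5% held at least 1 copy. The shorter SMAD element CAGAC was in none of the 5 windows on either strand, against 38.0% of all windows. TATAA, searched on both strands, was in the windows of FSTL3 and SMOC1, beginning 28 and 30 bases before the start, and in 18.9% of all windows. In FSTL3 the match reads TTATA, the reverse complement, and in SMOC1 the 2 matches, TTATA and TATAA, overlap. The GC content was 80.8% for SMAD3, 80.0% for FSTL3, 73.6% for TGFBR3, 65.6% for SMOC1 and 60.0% for BMPR1B, against a median of 58.0%. The window used is that of the most upstream RefSeq start of each gene, and BMPR1B has 3 RefSeq starts and SMAD3 5. The windows of SMOC1, TGFBR3 (chr1:91886152-91886401) and SMAD3 (chr15:67065352-67065601) lie inside the gene positions given below. Those of FSTL3 and BMPR1B lie before theirs. Which start these cells use was not analysed here.

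SMAD3, FSTL3 and SMOC1 were higher in the BRCA1-deficient line, and TGFBR3 and BMPR1B were lower. Thus 3 of the 5 genes were higher, where 53.5% of all listed genes were, and 2 were lower, where 46.5% were. Among the members, the intracellular transducer and both antagonists were on the higher side, and the receptor and the co-receptor on the lower side. On the scale of FPKM + 1, the 2-fold rule was met upward by 3 and downward by 1, against 25.3% and 22.5% of listed genes. These counts move with the scaling of the columns: with equal totals 2 members and 178 listed genes met the rule upward, and 1 member and 520 listed genes downward. With centring on the median ratio, 0 members and 63 listed genes met it upward, and 1 member and 550 listed genes downward. Nothing is read from these shares, since the members came from this contrast.

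**Figure D1:**
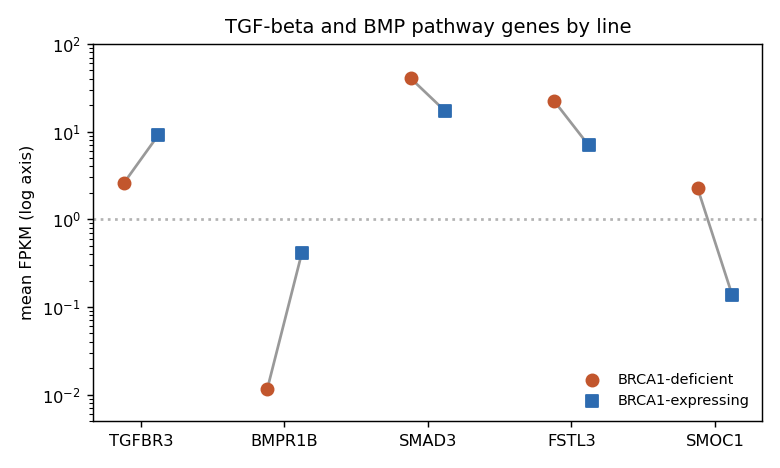
Mean FPKM (log axis) of each gene in the BRCA1-deficient line (circles) and the BRCA1-expressing line (squares), 1 deposited mean per line without error bars. SMAD3, FSTL3 and SMOC1 have the higher mean in the deficient line, TGFBR3 and BMPR1B in the other, and both BMPR1B means lie under the dotted line at 1 FPKM.

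TGFBR3, also called betaglycan, is a membrane proteoglycan that presents TGF-beta to its signalling receptors and binds inhibin. TGFBR3 (ENSG00000069702) lies on chromosome 1, 91680343 to 91906335, minus strand, GRCh38. Its mean was 2.59 FPKM in the BRCA1-deficient line and 9.13 FPKM in its partner, a 3.53-fold ratio and a log2 difference of FPKM + 1 of -1.50. TGFBR3 has -1.92 as its log2 fold change in the authors' deposited table (adjusted p = 5.62e-05). Its level was at the 53.0th percentile of listed genes in the deficient line and at the 77.6th in the other. The pseudogene RN7SL653P lies within it on the same strand.

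BMPR1B, also called ALK6, is a type I receptor kinase for BMPs and GDFs. BMPR1B (ENSG00000138696) lies on chromosome 4, 94757968 to 95158448, plus strand. It had 0.0116 FPKM in the BRCA1-deficient line and 0.407 FPKM in its partner. Both levels are low, the first at the 5.04th percentile of the listed genes and the second at the 26.7th. The ratio of these means is 35.1-fold, but on the scale of FPKM + 1 the log2 difference was -0.48, short of the 2-fold rule. The authors' deposited table lists BMPR1B with log2 fold change -4.03 (adjusted p = 2.31e-06). That fold is smaller than the log2 ratio of the means, -5.13.

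SMAD3 is the receptor-activated SMAD that carries TGF-beta and activin signals to the nucleus and binds DNA. SMAD3 (ENSG00000166949) lies on chromosome 15, 67063763 to 67195169, plus strand, and 2 genes on the opposite strand, AC012568.1 and AC087482.1, overlap it. How the authors' counting used strand is not stated. SMAD3 was the most abundant of the 5 genes in both lines, with 40.6 FPKM in the BRCA1-deficient line and 17.1 FPKM in its partner. Its ratio of 2.37 is the smallest of the 5, with a log2 difference of FPKM + 1 of 1.20. For SMAD3 the log2 fold change in the authors' deposited table was 1.43 (adjusted p = 0.000811). The log2 difference depended on the scaling of the columns. When the deficient column was brought to the total of the other over the listed genes, SMAD3 had a log2 difference of 0.78, and when centred on the median ratio (over listed genes reaching 1 FPKM in each line), 0.22.

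FSTL3 is a secreted relative of follistatin that binds activin and myostatin and keeps them from their receptors. FSTL3 (ENSG00000070404) lies on chromosome 19, 676392 to 683392, plus strand. It had 22.4 FPKM in the BRCA1-deficient line against 6.98 in its partner, a 3.20-fold ratio and a log2 difference of FPKM + 1 of 1.55. The authors' deposited table has FSTL3 at a log2 fold change of 1.80 (adjusted p = 0.000522). It stood below TGFBR3 in the BRCA1-expressing line and above it in the deficient line. With the centred scaling its log2 difference was 0.60.

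SMOC1 is a calcium-binding matrix protein that antagonises BMP signalling, as shown in Xenopus. SMOC1 (ENSG00000198732) lies on chromosome 14, 69854131 to 70032366, plus strand. It had 2.26 FPKM in the BRCA1-deficient line and 0.138 FPKM in its partner, a 16.3-fold ratio. The log2 difference of FPKM + 1 was 1.52, close to that of FSTL3, because the added 1 weighs on the low value. The log2 fold change of SMOC1 by the authors' deposited table was 5.60 (adjusted p = 2.26e-12, the smallest of the 5). That fold exceeds the log2 ratio of the means, 4.03. With the centred scaling its difference on the scale of FPKM + 1 was 0.90.

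**Figure D2:**
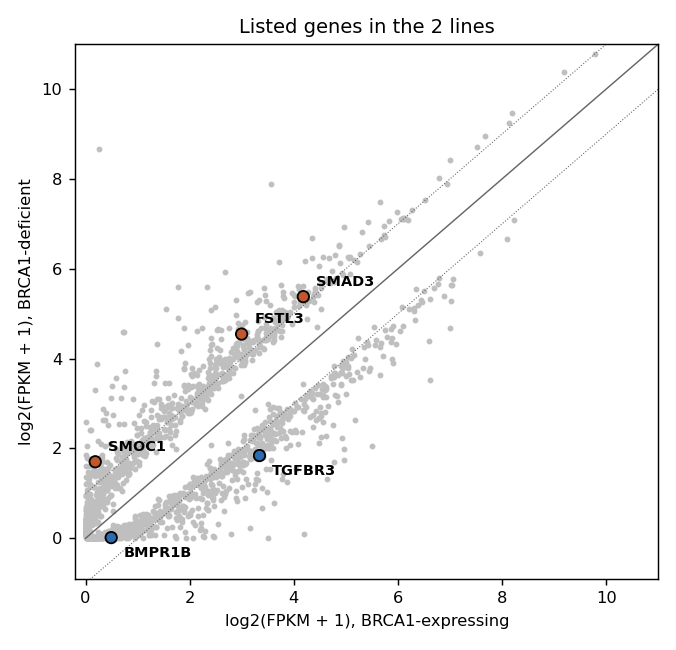
Each grey point is a listed gene, with log2(FPKM + 1) in the BRCA1-expressing line on the x axis and in the BRCA1-deficient line on the y axis; the solid line marks equal levels and the dotted lines a 2-fold difference. SMAD3, FSTL3 and SMOC1 lie above the upper dotted line, TGFBR3 below the lower one, and BMPR1B near the origin between them.

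By level, the order in the deficient line was SMAD3, FSTL3, TGFBR3, SMOC1 and BMPR1B, and in the BRCA1-expressing line SMAD3, TGFBR3, FSTL3, BMPR1B and SMOC1. Without a spread it cannot be said which neighbours in these orders differ. TGFBR3 and SMOC1, at 2.59 and 2.26 FPKM in the deficient line, have close means. For BMPR1B and SMOC1 the authors' log2 fold change and the log2 FPKM ratio differ by 1.11 and 1.57. A gap of more than 1 was found for 42 of the 1704 genes above 0 in both lines, where the median gap was 0.13. For TGFBR3, FSTL3 and SMAD3 the gaps were 0.10, 0.12 and 0.19 in size. The size of the BMPR1B and SMOC1 differences therefore depends on which of the deposited values is used, and the direction does not.

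**Figure D3:**
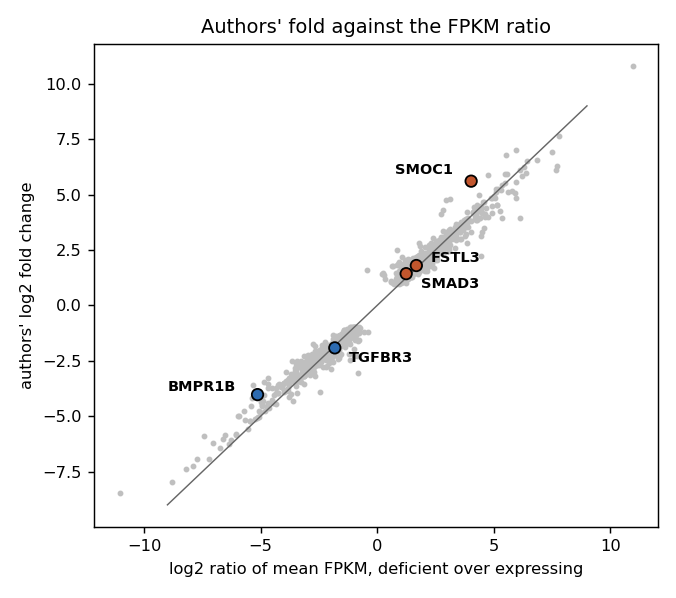
The authors' log2 fold change (y axis) against the log2 ratio of the deposited mean FPKM, deficient over BRCA1-expressing (x axis), for the 1704 genes above 0 in both lines, with the line of equality. SMAD3, FSTL3 and TGFBR3 lie near the line, and SMOC1 and BMPR1B both lie above it, by 1.57 and 1.11.

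The 5 genes were then set among the rest of their pathway. Of 146 genes in 10 lists by role, 34 had a row, or 23.3%, where 4.65% of the 38868 features behind the authors' adjusted p-values and 9.01% of annotated protein-coding genes had one. Of the 1806 listed genes 1798 are protein-coding, and 19951 protein-coding genes are annotated, so the 9.01% is the nearer comparison. Without the members, which were chosen for having a row, the pathway share was 29 of 141, or 20.6%. The lists were written with earlier results of these data known, so this share is a description. Of the 34, 22 were lower in the deficient line and 12 higher, where 46.5% of listed genes were lower. Their median log2 difference of FPKM + 1 was -0.60, against 0.20 for all listed genes. Without the 5 members the split was 9 higher and 20 lower. The 112 genes without a row were not analysed here.

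Ligands, receptors and co-receptors had rows in unlike shares, beside 9.01% of annotated protein-coding genes. None of 13 TGF-beta, activin and nodal ligands had one, and of 20 BMP and GDF ligands only GDF7 did (5%), at 0.229 against 0.666 FPKM. BMPR1B was the only 1 of 12 type I and type II receptors (8.33%). Of 9 co-receptors 3 had a row (33.3%), and they went both ways. ENG, endoglin, a co-receptor related to TGFBR3, was higher at 11.9 against 4.58 FPKM, while TGFBR3 was lower. BAMBI, a receptor-like protein without a kinase that blocks signalling, was lower at 0.432 against 1.28 FPKM. Their log2 fold changes by the authors' deposited table were 1.52 for ENG (adjusted p = 0.000986) and -1.42 for BAMBI (adjusted p = 0.0432).

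SMAD3 differed in direction from the other SMAD genes in the table. Of 8 SMAD genes 4 had a row (50%), where 9.01% of annotated protein-coding genes had one. Among these, 1 was higher and 3 were lower, where 46.5% of listed genes were lower. SMAD2, the closest relative of SMAD3 in TGF-beta signalling, had 6.54 FPKM in the deficient line against 11.1. SMAD4, the shared partner of all receptor-activated SMADs, had 4.50 against 9.93 FPKM. SMAD9, a BMP-activated SMAD, was at 0.0757 against 0.241 FPKM. Adjusted p-values in the authors' deposited table were 0.0307 for SMAD2, 0.0452 for SMAD4 and 0.0452 for SMAD9, all close to the limit of 0.05, against 0.000811 for SMAD3. SMAD2 and SMAD4 are on chromosome 18, as is the antagonist gene TWSG1, and 45 of the 47 listed genes of that chromosome were lower in the deficient line (95.7%). The part of that chromosome-wide direction in the values of SMAD2, SMAD4 and TWSG1 was not tested. On chromosome 15, which holds SMAD3, 23 of 51 listed genes were higher. PMEPA1, a membrane protein that sequesters SMAD2 and SMAD3 and is itself induced by TGF-beta, had 121 against 30.2 FPKM. It was the only 1 of 12 corepressors and degraders with a row (8.33%).

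The antagonists divided. Of 25 secreted antagonists 6 had a row (24%), where 9.01% of annotated protein-coding genes had one. Among these, 3 were higher and 3 lower, where 46.5% of listed genes were lower. Beside FSTL3 and SMOC1, WFIKKN2, which binds myostatin and GDF11, was higher at 0.113 against 0.00774 FPKM, under 1 FPKM in both lines. TWSG1, a BMP-binding protein, had 5.98 against 23.1 FPKM, and FSTL1, a secreted glycoprotein that shares a follistatin-type domain with FSTL3, had 32.3 against 78.4. BMPER, a BMP-binding regulator, was at 0.00335 against 0.0864 FPKM. FSTL1 was above FSTL3 in both lines. By the authors' deposited table the log2 fold change was -1.94 for TWSG1 and -1.22 for FSTL1.

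Of 13 genes that store or activate latent ligand 6 had a row (46.2%), where 9.01% of annotated protein-coding genes had one. Of the 6, 5 were lower, where 46.5% of listed genes were. The 2-fold rule on the scale of FPKM + 1 was met downward by 4, against 22.5% of listed genes, and LRRC32 fell short of it. FBN2, a fibrillin that holds latent complexes in the matrix, had 1.32 against 8.53 FPKM. FBN1 had 0.891 against 2.99, and LTBP4, which binds the latent TGF-beta complex, 6.57 against 15.8. THBS1, thrombospondin, an activator of latent TGF-beta, had 37.8 against 129 FPKM. LRRC32, which displays latent TGF-beta on the cell surface, was at 0.161 against 0.674. FURIN, the protease that cleaves TGF-beta precursors, was the single higher member, at 34.4 against 15.1 FPKM.

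TGF-beta response genes went both ways, and most BMP response genes with a row were lower. For comparison, 9.01% of annotated protein-coding genes had a row, and 46.5% of listed genes were lower. Of 21 TGF-beta response genes 7 had a row (33.3%), 4 higher and 3 lower. Among the higher ones were the matrix protein gene TGFBI (23.0 against 7.55 FPKM) and the gelatinase gene MMP2 (6.30 against 0.264). COL1A2, a type I collagen chain, had 10.5 against 97.3 FPKM, TPM1, a tropomyosin, 13.8 against 59.0, and the cell cycle inhibitor CDKN2B 1.77 against 7.12. Of 13 BMP response genes 5 had a row (38.5%), 1 higher and 4 lower. ID4 and ID2, inhibitors of helix-loop-helix factors, had 1.21 against 6.99 FPKM and 1.46 against 3.93. The transcription factor genes MSX2 (0.508 against 1.49) and RUNX2 (0.511 against 1.86) were also lower, and GATA2 was higher at 2.33 against 0.521. Several of these genes answer to other signals as well.

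**Figure D4:**
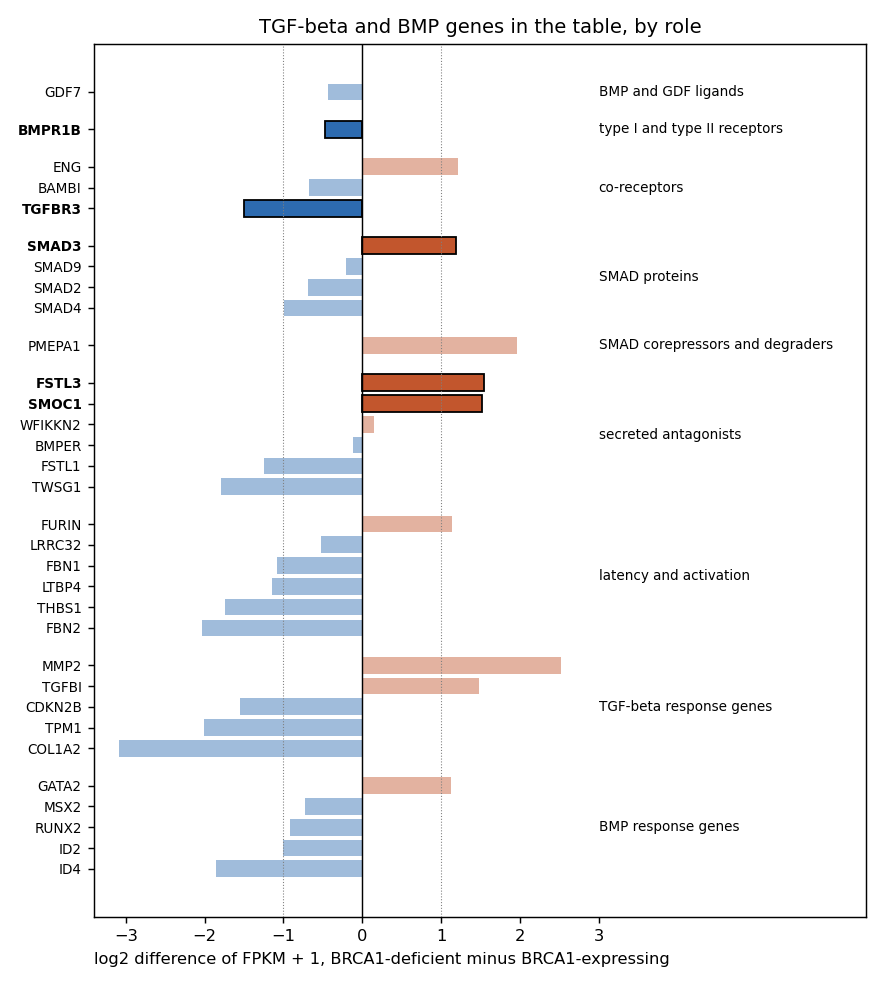
Bars give the log2 difference of FPKM + 1, BRCA1-deficient minus BRCA1-expressing, for 32 of the 34 pathway genes with a row, grouped by role, with the 5 members outlined and dotted lines at a 2-fold difference. In the SMAD group SMAD3 is the only bar to the right, and 5 of 6 latency and activation genes lie to the left.

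Markers of other cell types were also looked up, where 9.01% of annotated protein-coding genes had a row. Of 10 fibroblast markers 4 had a row (40%), 2 higher and 2 lower. Their summed level was 28.4 FPKM in the BRCA1-deficient line and 102 in its partner, of which COL1A2 was 10.5 and 97.3 FPKM, and PDGFRA and PDGFRB were each listed at 0 in 1 line. Of 10 endothelial markers 4 had a row (40%: KDR, EGFL7, CDH5 and ENG), all higher, where 53.5% of listed genes were. The summed level of these 4 was 54.4 against 16.5 FPKM. None of 10 leukocyte markers had a row, which does not show that they were absent, since the list holds only genes called different. ENG is counted both as a co-receptor and as an endothelial marker. The part of other cell types in these values was not tested.

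GC content of the transcripts moved with direction in the table. By the longest annotated transcript, the share of listed genes that were higher went from 14.2% in the lowest of 5 equal GC classes to 89.7% in the highest. BMPR1B (38.4% GC) was in the lowest class and TGFBR3 (43.8%) in the next, where 24.0% of genes were higher. SMAD3 (50.4%) and SMOC1 (54.8%) were in the middle class, where 59.3% were higher, and FSTL3 (64.4%) was in the highest. All 5 members thus went the way most genes of their class went, as did 28 of the 34 pathway genes and 78.2% of all listed genes. The 6 that went the other way were GDF7, BAMBI, FBN2, LRRC32, LTBP4 and ID2, all lower. Of the other SMAD genes with a row, SMAD2 (40.2%) and SMAD4 (41.1%) were in the lowest class and SMAD9 (43.3%) in the next. All of these were lower, as most genes of their classes were. The part of GC content in the members' differences was not tested.

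**Figure D5:**
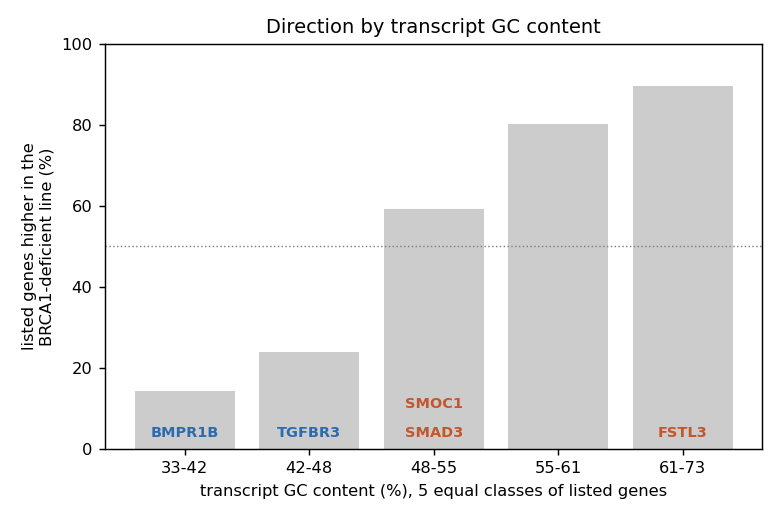
Bars give the percentage of listed genes that were higher in the BRCA1-deficient line in each of 5 classes of transcript GC content, with the members written in their class (orange for higher, blue for lower). The share goes from 14.2% to 89.7%, and the lower members TGFBR3 and BMPR1B are in the classes with 24.0% and 14.2%.

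The surroundings of the members differed too. Of annotated protein-coding genes 9.01% had a row, and of all listed genes 53.5% were higher. Higher genes were 109 of 159 listed on chromosome 19, which holds FSTL3, and 38 of 59 on chromosome 14, which holds SMOC1. On chromosome 15, with SMAD3, 23 of 51 were higher, and on chromosome 1, with TGFBR3, 53 of 152 were lower. Within 1000 kb of FSTL3, 16 other genes had a row, of 61 annotated protein-coding genes, and all 16 were higher in the deficient line. Their log2 differences of FPKM + 1 ran from 0.33 to 1.53 with a median of 1.12, below the 1.55 of FSTL3, and 15 of them were in the upper 2 GC classes. The nearest were AC004156.1 (13.2 against 5.86 FPKM) and POLRMT, the mitochondrial RNA polymerase (17.6 against 7.19). Near SMOC1 there were 3, all higher, the nearest being SLC8A3 (0.108 against 0.0136 FPKM) and SYNJ2BP-COX16, a readthrough gene that shares reads with SYNJ2BP and COX16 (1.96 against 0.667). Near SMAD3 there were 2, C15orf61 (1.74 against 0.786) and DIS3L (11.1 against 5.38), both higher. Near TGFBR3 there was 1, DIPK1A, lower at 2.14 against 6.26 FPKM, and near BMPR1B none of 7 annotated protein-coding genes had a row. The part of the surroundings in the members' values was not tested.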

How the data were processed

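Total RNA of 2 samples, 1 per line, was sequenced as strand-specific libraries depleted of ribosomal RNA, per the labels' protocols. The deposited table holds FPKM as means by the authors, with the log2 fold change, p-value and adjusted p-value given by the authors per the file headers. Which test gave them is not stated in the labels or headers. The submitters' processing notes list HISAT2, StringTie 1.3.3b and, as genome build, the mouse build mm9. The gene IDs are human, and all 1799 IDs matched in GENCODE release 29 overlap their gene there on GRCh38, so positions were read as GRCh38. The adjusted p-values follow a correction over 38868 features, and the last listed gene has rank 2716, so the 1806 genes are part of those under 0.05.

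Differences are log2 of FPKM + 1, BRCA1-deficient minus BRCA1-expressing, with a 2-fold rule. No test was run, since there is 1 mean per line. Members and lists were chosen with earlier results of these data known. Genes named are the members, all pathway list genes with a row, the 2 genes nearest each member by level, and the nearest 2 within 1000 kb. Marker genes were named beside them. Some genes that this rule selects are left out of the text and the plots. Transcript GC content is that of the longest GENCODE transcript. Promoter windows come from RefSeq, and all 5 members matched by symbol. The calculations were tested on simulated data. The alternatives tried were equal totals, centring, pseudocounts of 0.1 and 0.01, a 4-fold rule, minimum FPKM of 1, a stricter adjusted p of 0.01 and the authors' fold, and leaving out chromosome 18 was added after seeing the data. Python 3.11.15 with numpy 2.4.6, pandas 2.3.3 and matplotlib 3.10.9 was used.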

Additional observations from a re-analysis of the deposited data

How the results depend on the processing

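The direction of each of the 5 members was the same under pseudocounts of 0.1 and 0.01, equal totals, centring and the authors' fold. BMPR1B (-0.48 with a pseudocount of 1) passed the 2-fold rule with pseudocounts of 0.1 (-2.18) and 0.01 (-4.27) and by the fold in the authors' deposited table (-4.03), since its low FPKM are shrunk by the added 1. Thus 2 members were lower by that rule at either smaller pseudocount. Centring shifted the deficient column by -1.01 on the log2 scale, and over the listed genes the median difference by -0.21, with a median shift per gene of -0.61. It took SMAD3 (0.22), FSTL3 (0.60) and SMOC1 (0.90) under the rule, leaving 0 higher members, where 63 of the 1806 listed genes (3.49%) still met it upward and 550 (30.5%) downward. Equal totals took SMAD3 under it (0.78). Both scalings were computed from called genes alone. Under a 4-fold rule 0 members were higher and 0 lower on the scale of FPKM + 1. For the pathway genes, the split of 12 higher and 22 lower became 8 and 13 among genes reaching 1 FPKM in each line, and 9 and 13 at an adjusted p of 0.01 or less, with fewer genes counted. Without chromosome 18 the split was 12 higher and 19 lower. The matching shares of listed genes under the smaller pseudocounts, the 4-fold rule and these filters are not given here. Nothing is therefore read from the counts under those settings. No paired analysis was possible because each line has 1 deposited mean. No replicate could be left out for the same reason. The table gives no depth, so the error of the low BMPR1B and SMOC1 means is unknown.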

Other observations

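Of all named genes in the table, those closest to each member in log2(FPKM + 1) over the 2 lines were the following. Nearest to SMAD3 were ACAT2, an enzyme of cholesterol synthesis, at 40.3 against 16.6 FPKM, and ZNF593 at 39.7 against 17.6. Nearest to FSTL3 were TGFBI, a matrix protein induced by TGF-beta, at 23.0 against 7.55 FPKM, and the transporter gene SLC43A3 at 24.1 against 6.59. TUBB2B, a beta-tubulin gene, at 2.48 against 9.14 FPKM, and CPEB4, an RNA-binding protein gene, at 2.70 against 8.76, were nearest to TGFBR3. ADGRE2 (2.16 against 0.0953 FPKM) and HCAR1 (2.30 against 0.194) were nearest to SMOC1, and KLHL33 (0.00460 against 0.423) and MT1G (listed at 0 against 0.398) to BMPR1B. The distances ran from 0.019 for KLHL33 to 0.126 for SLC43A3. TUBB2B and MT1G have close paralogs, so their values are uncertain. With only 2 values per gene, closeness says only that the levels are similar.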
